A study of Homo sapiens with 10 samples.

Results

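A set of 10 genes of the bone morphogenetic protein (BMP) pathway was examined by RNA-seq in ZNF274 KO and WT cells. The genes were taken by name: the ligand genes BMP2, BMP4, BMP5 and BMP7, the antagonist genes NOG and GREM1, and the target genes ID1, ID2, ID3 and ID4. Earlier results of these data were known when they were chosen. They are 10 of the 24050 genes listed in the count tables of the 2 cell types, and all 10 were found in both tables. The data set holds 10 libraries, namely 3 of WT HEK293T (S15, S16, S17), 3 of ZNF274KO HEK293T (S18, S19, S20), 2 of WT NPC (S3, S5) and 2 of ZNF274KO NPC (S1, S2). HEK293T is a line from human embryonic kidney, and the NPCs, neural progenitor cells, were derived from H1 human embryonic stem cells by neural induction of embryoid bodies. ZNF274 encodes a KRAB zinc finger protein and was deleted with CRISPR-Cas9 and a pair of guides, after which single-cell clones of HEK293T and single colonies of stem cells were grown. The comparisons ask which genes change in level when ZNF274 is lost, in each cell type. Replicates are described as independent clones, but the labels do not say which clone or culture each library comes from, so p-values measure the spread between these libraries alone.

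BMPs are secreted ligands that bind paired type I and type II serine/threonine kinase receptors, which phosphorylate SMAD1, SMAD5 and SMAD9. Those SMADs enter the nucleus with SMAD4 and raise transcription of target genes, with the ID genes among the best known. ID proteins have a helix-loop-helix but no DNA-binding basic region, so they pair with E proteins and keep them from DNA, and by this they hold back differentiation. Noggin (NOG) and gremlin 1 (GREM1) bind BMPs outside the cell and block them. In the embryo, low BMP activity favours neural over epidermal fate, and later BMPs from the roof plate pattern the dorsal neural tube and neural crest.

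Promoter stretches of the ID genes, NOG and GREM1 are shown first, with letters that SMADs of the BMP branch are known to bind. These letters are not particular to the ID genes, as the shares over all windows show. The windows of 1500 bases upstream of the annotated start of the canonical transcript were read from the hg19 genome on both strands, with positions counted backwards from the start. The BMP-type spaced motif, GGCGNC and then GTCT with 5 bases of any kind between them, was found in 0.931% of 19867 protein-coding windows, and among the 10 genes only ID1 held it, at bases -911 to -897. Its variant with GACGNC in the first place was found in 0.262% of windows, and among the 10 genes only ID3 held it, at bases -506 to -492. The letters GGCGCC alone, which the first motif can contain, were present in 42.7% of windows and in those of 6 of the 10 genes, namely BMP5, NOG, GREM1, ID1, ID2 and ID4. The short GTCTG, which overlaps the end of a spaced motif where a G follows, was present in 93.1% of windows and in all 10. The stretches below are given 5′ to 3′ on the strand of the gene, with the fixed letters of the spaced motifs and of GGCGCC in capitals; matches of the common GTCTG are not marked. They lie at chr20:30192112-30192211 on the plus strand for ID1, chr1:23886463-23886522 on the minus strand for ID3, chr2:8821751-8821810 on the plus strand for ID2, chr6:19837066-19837125 on the plus strand for ID4, chr17:54670578-54670637 on the plus strand for NOG and chr15:33010110-33010169 on the plus strand for GREM1. None overlaps an annotated exon of its own gene, and the stretches of ID1 and GREM1 overlap exons of antisense noncoding transcripts. A match is a description of letters and not of a bound site.
ID1: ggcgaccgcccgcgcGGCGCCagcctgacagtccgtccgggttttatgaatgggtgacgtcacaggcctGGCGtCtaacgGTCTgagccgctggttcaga
ID3: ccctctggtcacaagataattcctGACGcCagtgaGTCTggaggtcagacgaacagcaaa
ID2: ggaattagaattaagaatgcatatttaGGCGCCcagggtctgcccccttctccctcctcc
ID4: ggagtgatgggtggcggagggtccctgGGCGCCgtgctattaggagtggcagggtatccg
NOG: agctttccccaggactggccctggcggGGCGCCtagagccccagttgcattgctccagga
GREM1: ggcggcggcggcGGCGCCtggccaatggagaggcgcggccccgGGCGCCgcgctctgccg

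The deleted gene was checked first. ZNF274 was at 14.7, 14.6 and 16.6 CPM (the count of a gene relative to the total of its library, scaled by TMM over all 10 libraries) in the WT HEK293T libraries and at 23.3 and 25.4 CPM in the WT NPC libraries. It had 0 counts in all 5 KO libraries, where 3 counts per library were used as the floor of detection, 0.0916 to 0.149 CPM. Depth was 21421013 to 32285876 counts on genes for HEK293T and 18621266 to 23035490 for NPCs. Of the neural progenitor genes, SOX2 was at 228 and 219 CPM and SOX1 at 7.32 and 50.6 CPM in the WT NPC libraries S3 and S5. In the KO libraries labelled NPC, SOX2 was at 12.8 and 21.5 CPM and SOX1 at 0.0497 and 0.0917 CPM, under the floor, while NES stood at 3205 and 3143 CPM against 2272 and 2998 CPM in WT. The label NPC of the KO libraries thus goes against SOX1, and KO NPC stands below for the libraries so labelled. The WT NPC libraries also differed from each other by 3.25-fold in BMP2 and 6.24-fold in BMP4, and values that turn on one of the pair are given without it.

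In HEK293T cells, no change of the 10 genes passed the test. Of the 9 tested, 0 were called by edgeR's quasi-likelihood test, where a call needed a fold change (FC) of more than 2 at a Benjamini-Hochberg adjusted p under 0.05, against 0.489% of all genes called in that comparison. DESeq2 and voom called 0 as well, and 1 of the 9, BMP2, had an unadjusted p below 0.05 with edgeR. Among all 19018 genes tested, 1354 had such a p. GREM1 had 2 counts in the WT library S16 and 0 in the other 5, and was not tested.

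**Figure D1:**
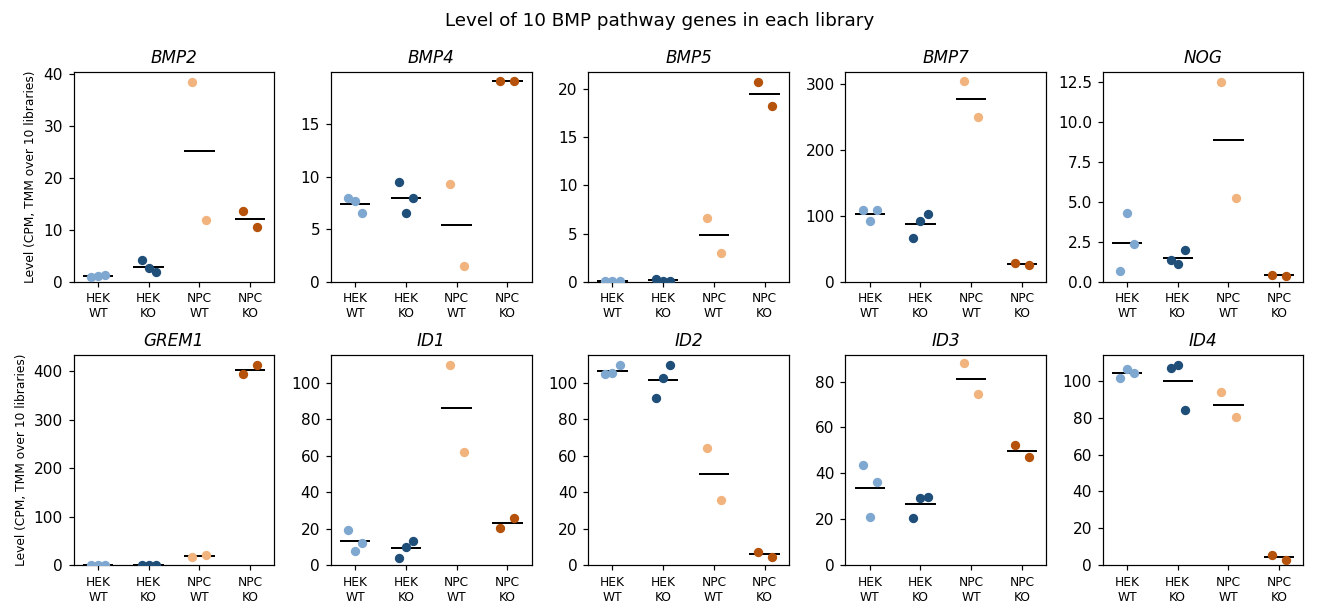
Level of each of the 10 genes in every library, as CPM scaled by TMM over the 10 libraries on a linear axis from 0; points are libraries, horizontal bars are group means, and HEK stands for HEK293T. ID2 and ID4 stand at 84.3 to 110 CPM in HEK293T libraries of both genotypes and at 2.89 to 7.41 CPM in KO NPCs, and GREM1 is under the floor of 3 counts in every HEK293T library.

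The ligand genes of HEK293T cells were led by BMP7. BMP7 (chr20:55743809-55841697, minus strand), which encodes a ligand known for its roles in kidney and eye development, was at 109, 91.6 and 109 CPM in WT and at 66.7, 91.6 and 103 CPM in KO. The groups overlapped, and the log2 FC was -0.24 (SE 0.17, 95% interval -0.62 to 0.15). Per kilobase (kb) of canonical transcript, BMP7 made up 84.0 to 87.7% of the 4 ligand genes in WT and 72.8 to 84.6% in KO libraries.

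BMP4 (chr14:54416454-54425479, minus strand), a ligand that ventralizes mesoderm and patterns the dorsal neural tube, was at 7.95, 7.68 and 6.58 CPM in WT and 9.54, 6.53 and 7.99 CPM in KO HEK293T cells. Its groups overlapped too, with a log2 FC of 0.12 (interval -0.38 to 0.61). BMP2 (chr20:6748333-6760893, plus strand), a close relative of BMP4 that drives bone and heart formation, was low, at 0.862, 1.17 and 1.38 CPM in WT and 4.25, 2.59 and 1.97 CPM in KO. All 3 KO libraries lay above all 3 WT libraries. The log2 FC of BMP2 was 1.36 (SE 0.37, interval 0.54 to 2.19), and with edgeR's quasi-likelihood test its adjusted p was 0.306, so it was not called. BMP5 (chr6:55618451-55740388, minus strand), a ligand of skeletal and limb development, had 1 to 4 counts in WT and 1 to 6 in KO libraries, a range that lies around the floor.

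NOG (chr17:54671060-54672972, plus strand) ranged widely within WT HEK293T, from 0.663 CPM in S15 to 4.31 CPM in S16, with 2.40 CPM in S17. The KO libraries, at 1.34, 1.10 and 2.01 CPM, lay within that range (log2 FC -0.72, interval -1.93 to 0.49; -0.043 without S16 and -1.17 without S15). The spread of NOG over the 3 WT libraries was thus larger than the distance between the group means, 2.45 and 1.48 CPM.

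The ID genes of HEK293T cells fell into a steady pair and a variable pair. ID2 (chr2:8818975-8824591, plus strand), an ID gene known for roles in lymphoid and neural cells, was at 105, 105 and 110 CPM in WT and at 91.8, 103 and 110 CPM in KO. ID4 (chr6:19837601-19842428, plus strand), the ID gene tied to neural progenitor growth, was at 102, 106 and 104 CPM in WT and at 107, 109 and 84.3 CPM in KO. Their log2 FC were -0.07 (interval -0.36 to 0.22) and -0.05 (interval -0.37 to 0.26), and their groups overlapped.

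ID1 (chr20:30193086-30194318, plus strand), the ID gene most used as a readout of BMP signalling, was at 19.3, 7.47 and 12.3 CPM in WT and at 4.08, 9.83 and 13.3 CPM in KO HEK293T cells. ID3 (chr1:23884417-23885992, minus strand), which often shares its pattern with ID1, was at 43.7, 20.7 and 36.3 CPM in WT and at 20.6, 29.4 and 29.6 CPM in KO. Both genes were lowest in KO library S18, next lowest in WT library S16 and highest in WT library S15, so the same libraries stood at each end for both genes, one of each genotype at the low end. The log2 FC was -0.51 for ID1 (interval -1.43 to 0.40) and -0.34 for ID3 (interval -0.91 to 0.23). S18 also had the fewest counts of the HEK293T libraries, and the part of this in the order of ID1 and ID3 was not tested.

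In NPCs, 7 of the 10 genes were called, with BMP5 and GREM1 higher in KO and BMP7, NOG, ID1, ID2 and ID4 lower. The KO and WT libraries of these 7 did not overlap. How many of all genes lacked overlap was not counted, so this adds nothing to the calls. Over all genes tested in NPCs, 8.45% were called higher and 8.36% lower. The median log2 FC was -1.49 over the 10 genes and -0.02 over all genes tested. In bulk libraries such as these, fewer cells of a type and less RNA per cell cannot be told apart.

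**Figure D2:**
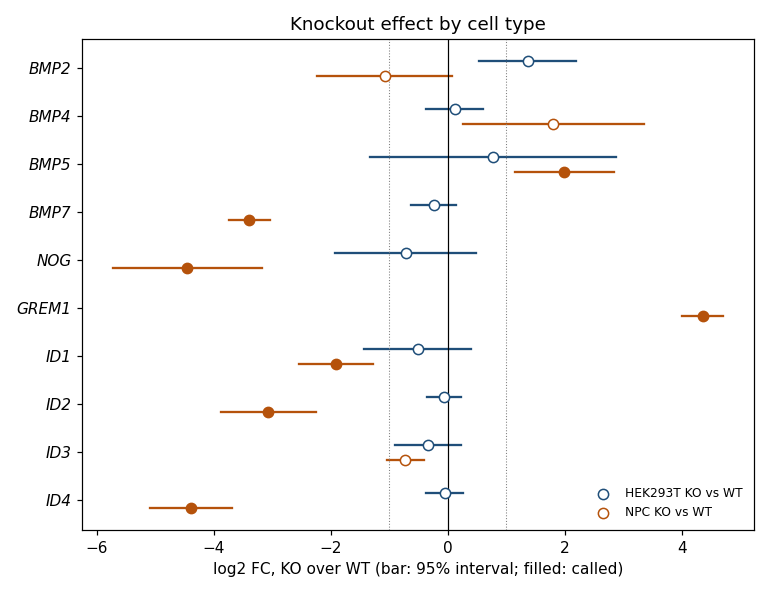
Log2 FC of KO over WT with its 95% interval for each of the 10 genes, in HEK293T cells (blue) and NPCs (orange); filled points had an FC over 2 with an adjusted p under 0.05, dotted lines mark that FC, and GREM1 was not tested in HEK293T cells. The NPC values run from -4.45 for NOG to 4.36 for GREM1, while no HEK293T value was called.

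Among the ligand genes in NPCs, BMP7 was at 304 and 250 CPM in WT and at 28.3 and 25.1 CPM in KO, 10.5-fold lower (log2 FC -3.39, SE 0.15, edgeR adjusted p = 3.03e-05). The KO pair lay far below both WT libraries. BMP5 moved the other way, from 6.65 and 3.02 CPM in WT to 20.7 and 18.2 CPM in KO, 3.97-fold higher (log2 FC 1.99, SE 0.36, edgeR adjusted p = 0.00664). Its log2 FC was 2.67 without S3 and 1.53 without S5, and its highest adjusted p over the alternatives was 0.0499, without S1.

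BMP4 was at 9.26 and 1.49 CPM in the WT NPC libraries S3 and S5 and at 19.1 CPM in both KO libraries. Both KO libraries were above both WT libraries, but the WT pair was far apart, and the log2 FC of 1.81 (SE 0.66, interval 0.26 to 3.36) had an edgeR adjusted p of 0.0824. BMP4 was not called there, while voom called it at a log2 FC of 2.30 (adjusted p = 0.0367) and a fit of all 10 libraries at 1.82 (adjusted p = 0.0286). Its log2 FC was 3.66 without S3 and 1.02 without S5, and it was called in both; over all alternatives run, the adjusted p was 2.91e-30 to 0.228, where the lowest values come from fits with 1 WT library, whose spread is assumed to be that of the KO pair.

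BMP2 was at 38.5 and 11.8 CPM in WT NPCs and at 13.6 and 10.5 CPM in KO NPCs. The KO pair sat beside the lower WT library S5, and the log2 FC of -1.08 (SE 0.49, interval -2.23 to 0.07) was not called (edgeR adjusted p = 0.145). Without S3 the log2 FC of BMP2 was 0.0078, and without S5 it was -1.70 and was called.

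These shifts changed which ligand gene was highest per kb of canonical transcript, but not in CPM. In CPM, BMP7 stayed highest in KO NPCs, at 25.1 to 28.3 against 19.1 for BMP4 and 18.2 to 20.7 for BMP5. The canonical lengths are 4021 bases for BMP7 and 1931 for BMP4. Per kb of transcript, BMP7 made up 92.7% of the 4 ligand genes in WT NPC library S5 and 81.4% in S3. In the KO NPC libraries its share was 27.1 and 26.4%, below that of BMP4, at 38.0 and 41.8%. BMP5 rose from at most 1.80% of the ligand sum in WT to 20.1 and 19.4% in KO, and BMP2 stood at 14.8 and 12.5% there. No ligand gene thus held more than 41.8% of the sum in KO NPCs, where the sum itself was lower with BMP7.

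**Figure D3:**
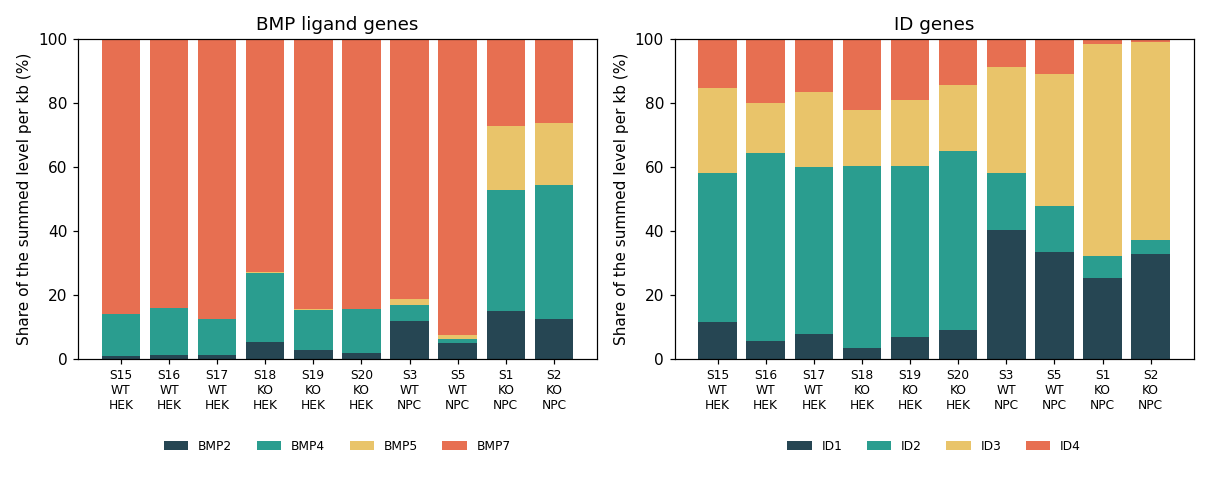
Share of each ligand gene in the summed level of the 4 ligand genes (left) and of each ID gene in that of the 4 ID genes (right), per library, in CPM per kb of canonical transcript; each bar sums to 100%. BMP7 is 72.8 to 92.7% of the ligand bar in 8 libraries and 26.4 to 27.1% in the KO NPC pair, where ID3 is 61.9 to 66.2% of the ID bar.

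The antagonist genes moved in opposite directions in NPCs. NOG was at 12.5 and 5.27 CPM in WT and at 0.448 and 0.367 CPM in KO, which are 9 and 8 counts. It was 21.9-fold lower in KO (log2 FC -4.45, SE 0.54, edgeR adjusted p = 0.00137; log2 FC -3.70 without S3), and even the lower WT library had 103 counts. GREM1 (chr15:33010205-33037307, plus strand), which binds BMP2, BMP4 and BMP7 and is made by many mesenchymal and stromal cells, was at 17.3 and 21.7 CPM in WT and at 394 and 412 CPM in KO. It was 20.5-fold higher (log2 FC 4.36, SE 0.15, edgeR adjusted p = 1.90e-05). Per kb, NOG held 65.0 to 84.6% of the sum of both antagonist genes in WT libraries and 0.673 to 0.858% in KO. The WT share rests on the canonical lengths, 14575 bases for GREM1 and 1913 for NOG. In CPM, GREM1 was above NOG in both WT NPC libraries as well.

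All 4 ID genes were lower in every KO than in every WT NPC library, with no share of all genes counted for this. Of the 4, 3 were called. Over all genes tested in NPCs, 8.36% were called lower. ID4 was at 94.2 and 80.3 CPM in WT and at 5.57 and 2.89 CPM in KO, 20.9-fold lower (log2 FC -4.39, SE 0.29, edgeR adjusted p = 0.000145). ID2 was at 64.1 and 35.6 CPM in WT and at 7.41 and 4.63 CPM in KO, 8.37-fold lower (log2 FC -3.07, SE 0.35, edgeR adjusted p = 0.00103). ID1 was at 110 and 62.2 CPM in WT and at 20.5 and 25.8 CPM in KO, 3.75-fold lower (log2 FC -1.91, SE 0.27, edgeR adjusted p = 0.00245).

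ID3 kept the most of its level. It was at 88.2 and 74.5 CPM in WT and at 52.2 and 47.2 CPM in KO NPCs, 1.65-fold lower (log2 FC -0.72, SE 0.13). Its edgeR adjusted p of 0.00743 passed while its FC was under 2, so it was not called. The 95% intervals of the log2 FC of ID3 (-1.04 to -0.41) and ID1 (-2.54 to -1.27) did not overlap, and neither reached that of ID4 (-5.08 to -3.69), while that of ID2 (-3.88 to -2.25) overlapped those of ID1 and ID4. ID3 made up 33.4 to 41.3% of the 4 ID genes per kb in WT NPCs and 61.9 to 66.2% in KO, whereas ID4 went from 8.74 to 10.9% to 0.929 to 1.73%. Of the promoter letters above, the spaced motifs were in the windows of ID1 and ID3 and not in those of ID2 and ID4, which is a description of 4 genes only.

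Markers of other cell types moved with these genes in NPCs. The shares over all genes in NPCs were 8.45% called higher and 8.36% called lower. Of 11 neural progenitor markers found, 7 were called lower in KO and 0 higher. Their summed level was 2823 to 3807 CPM in WT and 3212 to 3249 CPM in KO, and was mostly NES. HES5, at 4 and 6 counts in WT, was at 0 in both KO libraries and was not called. Of 8 neuron markers, 4 were lower and 1 higher (1085 to 1175 CPM summed in WT, 177 to 220 CPM in KO). Mesenchymal markers were called higher for 5 of 11 and lower for 0 (1331 to 2228 CPM in WT, 5370 to 6149 CPM in KO), neural crest markers higher for 4 of 5 (86.6 to 139 CPM in WT, 551 to 605 CPM in KO) and simple epithelial markers higher for 3 of 6 (342 to 599 CPM in WT, 1326 to 1502 CPM in KO). Of the 4 pluripotency markers found, 1 was higher and 1 lower (140 to 161 CPM in WT, 66.3 to 70.9 CPM in KO). NANOG, at 3 and 5 counts in WT, was at 0 in both KO libraries and was not called. Of 3 kidney lineage markers found, 1, SIX2, was higher (0.922 to 1.90 CPM summed in WT, 6.56 to 7.02 CPM in KO). FOXD3 of the neural crest list was at 0 in both WT libraries and SOX10 in S3. Their part in the BMP and ID results was not tested. In HEK293T cells, where 0.489% of all genes were called, 0 markers of any of these lists were called by edgeR. There, 1 gene each of the neural progenitor, neuron and neural crest lists had an unadjusted p below 0.05, as had 1354 of all 19018 genes tested.

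The difference of the KO effect between cell types was tested as an interaction over all 10 libraries, and 6 of the 10 genes passed. BMP7 (log2 difference -3.14, SE 0.26), ID2 (-2.98, SE 0.34) and ID4 (-4.31, SE 0.32) fell further in NPCs, with edgeR adjusted p of 2.02e-05, 0.000168 and 8.31e-06, and kept their calls under all alternatives run. NOG (-3.71, SE 0.96, edgeR adjusted p = 0.021) and BMP2 (-2.42, SE 0.65, edgeR adjusted p = 0.0258) were also called lower, and GREM1 was called higher. Over all genes tested, 6.22% were called lower and 6.01% higher in this comparison. Cell type, count table and sequencing cannot be told apart between HEK293T and NPC libraries, although each KO effect is taken within 1 table.

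The calls of NOG, BMP2 and GREM1 were lost under some of the alternatives. NOG lost its call without the NPC library S3 (log2 difference -2.96, adjusted p = 0.0842), S1 (-3.86, 0.0814) or S2 (-3.57, 0.0951), with a range of 0.00145 to 0.0951 over all alternatives, and its log2 difference was -4.39 without S16. BMP2 lost its call with voom (log2 difference -2.15, adjusted p = 0.0941) and without S15 (-2.25, 0.058), S16 (-2.44, 0.0536), S3 (-1.33, 0.151), S1 (-2.62, 0.0711) or S2 (-2.24, 0.108), with a range of 0.00308 to 0.151, and its log2 difference was -3.05 without S5. GREM1 has no usable fold here, since HEK293T libraries are at or under the floor; its call was lost without S16, the only HEK293T library with counts of it (adjusted p = 0.9999), and without S1 (0.0663) or S2 (0.0647), with a range of 0.00116 to 0.9999. Of the 4 genes not called, ID1 had a log2 difference of -1.38 (interval -2.74 to -0.02, adjusted p = 0.165) and was called without S18 (-1.72, adjusted p = 0.0331, range 0.0331 to 0.448). BMP4 (1.71, adjusted p = 0.119) was called with voom and without S3, at 2.24 and 3.57, and was 0.91 and not called without S5 (range of adjusted p 0.000421 to 0.239). BMP5 (1.27, interval -0.83 to 3.37) and ID3 (-0.37, interval -1.18 to 0.44) were not called under any alternative. With a library left out, BMP5 was at 0.70 to 1.95. Its HEK293T libraries hold 1 to 6 counts, around the floor, so these BMP5 values are not exact differences.

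Between the WT groups, 8 of the 10 genes differed. WT NPCs had higher levels of BMP2, BMP5, BMP7, NOG, GREM1, ID1 and ID3 than WT HEK293T cells and a lower level of ID2, where 25.2% of all genes were called higher and 15.5% lower. BMP2 was 22.02-fold higher (log2 FC 4.46, SE 0.48; 3.37 without S3 and 5.07 without S5), ID1 6.61-fold (2.72, SE 0.44), BMP7 2.69-fold (1.43, SE 0.18) and ID3 2.42-fold (1.28, SE 0.26), with edgeR adjusted p of at most 0.00111. BMP5 was called higher too, at 59 to 140 counts in WT NPCs against 1 to 4 counts in WT HEK293T libraries, and no fold is given since the latter lie around the floor. The WT NPC mean of GREM1, 19.5 CPM, was at least 189-fold higher, taking the 3-count floor of the least favourable WT HEK293T library, S16. The lower WT NPC library was at 17.3 CPM, so the bound holds for the mean and not for each library.

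NOG was 3.63-fold higher in WT NPCs (log2 FC 1.86, SE 0.58, edgeR adjusted p = 0.0159; log2 FC 2.54 without S16) but was not called without S3, where the log2 FC was 1.10 (adjusted p = 0.218; range over the alternatives 0.00502 to 0.218). ID2 was 2.14-fold lower (log2 FC -1.10, SE 0.24) and fell under the FC threshold without S5, at -0.74. ID4 did not pass (-0.26, interval -0.70 to 0.19). BMP4 did not pass either (-0.46, interval -1.54 to 0.63); without S3 it was called at -2.31, and without S5 its sign turned, to 0.32.

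Ordered by group mean, the 10 genes gave several patterns. BMP7 ran from KO NPC (26.7 CPM) through KO and WT HEK293T (87.3 and 103 CPM), which overlapped, to WT NPC (277 CPM). NOG followed the same order of groups, from 0.407 CPM in KO NPC to 8.91 CPM in WT NPC, with the HEK293T groups overlapping. ID1 and ID3 shared another order, KO HEK293T, WT HEK293T, KO NPC and WT NPC, in which only the HEK293T groups overlapped. ID2 and ID4 were lowest in KO NPC (6.02 and 4.23 CPM), then WT NPC (49.9 and 87.3 CPM), and highest in the HEK293T groups, and for ID4 WT NPC overlapped KO HEK293T. BMP5 and GREM1 ran from the HEK293T groups, which overlapped, through WT NPC to KO NPC. For BMP4 the WT NPC libraries overlapped WT HEK293T, and KO NPC alone stood clear, while for BMP2 the NPC groups overlapped each other.

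For each gene, the gene most like it over the 10 libraries was found among 13714 genes by Pearson r of log2(CPM + 1), as a description in which libraries of 1 group share their source. These were ABI3 for GREM1 (r = 0.9995), MMP19 for BMP5 (0.997), TYRO3 for BMP7 (0.996), BCL7A for ID2 (0.993) and SAMD15 for ID1 (0.986). The others were METTL7A for ID4 (0.983), NEK11 for BMP2 (0.983), HMGB2 for NOG (0.973), MAPK8IP1P2 for ID3 (0.968) and SLC41A1 for BMP4 (0.940).

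The rest of the pathway was covered by 58 further listed genes, of which 54 were found. In HEK293T cells 0 of 49 tested were called by edgeR, by DESeq2 or by voom. With edgeR, 2 had an unadjusted p below 0.05, ACVRL1 and CHRDL1, each at 22 counts or fewer per library. Such a p was found for 1354 of all 19018 genes tested. With 0.489% of all genes called in HEK293T cells, a count of 0 in 49 is near the background. In NPCs 23 of 48 tested were called, 12 higher and 11 lower, with a median log2 FC of 0.09. Over all genes tested in that comparison, 8.45% were called higher and 8.36% lower, and the counts of each list below stand against these shares. The count was 12 without KO library S1 and 15 without KO library S2, fits in which 10.2 and 11.6% of all genes were called, against 19.3% without WT library S3 and 19.8% without S5. Of the 23 genes, 11 were called with each library left out in turn: ENG, ACVRL1, BMPR2, RGMB, ACVR2B, SMURF2, SMAD9, FST, SOSTDC1, FSTL1 and HEY1. The calls of GDF5, GDF7, BMP6, SMAD7, FSTL3, BAMBI, MSX2, TLL1 and NBL1 were lost without S1 and without S2. Those of RGMA and CHRDL1 were lost without S1, that of TCF3 without S1 or S5, and those of BAMBI and NBL1 also without S3. Without S1 and without S2, the log2 FC of GDF5 (3.04 and 3.01) and TLL1 (3.21 and 3.27) stayed close to the full fit. Those of MSX2 (1.90 and 2.46) and NBL1 (-1.34 and -0.86) moved further, with the same sign.

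**Figure D4:**
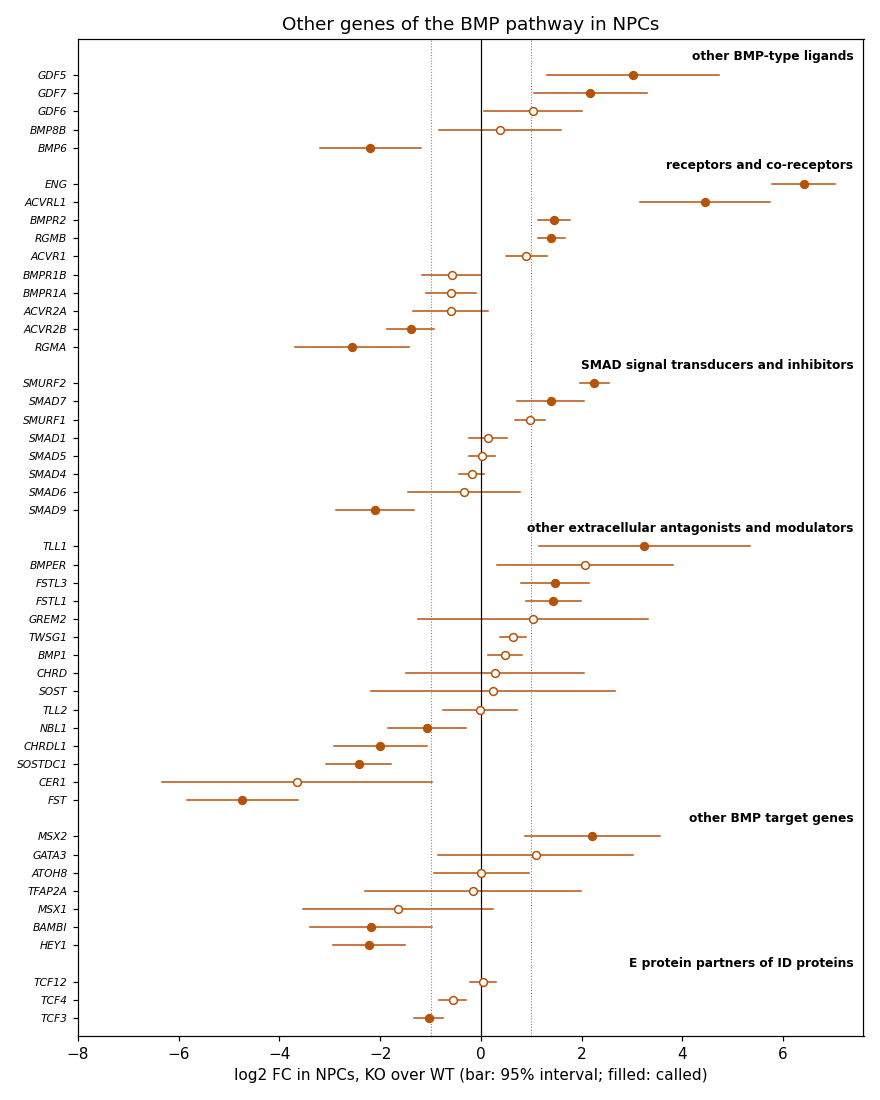
Log2 FC of KO over WT in NPCs with its 95% interval for 48 other genes of the BMP pathway, by list; filled points had an FC over 2 with an adjusted p under 0.05, and dotted lines mark that FC. Values run from -4.74 for FST to 6.41 for ENG.

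Among the other ligand genes in NPCs, GDF5, a joint-forming ligand, had the highest mean of its list per kb in WT NPCs (1.83 CPM per kb), but in S5 BMP6 was above it (0.839 against 0.368 CPM per kb). GDF5 was at 7.79 and 0.871 CPM in WT and 35.7 and 36.4 CPM in KO. Its log2 FC was 3.03, with 5.34 without S3 and 2.19 without S5. GDF7, a roof plate ligand, rose by a log2 FC of 2.17 (3.09 without S3 and 1.62 without S5), and BMP6 fell by 2.19, so 2 of 5 tested rose and 1 fell, where lists this short can hold 1 call at the background share.

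Receptor and co-receptor genes rose in 4 and fell in 2 of 10. ENG, endoglin, a co-receptor of endothelial and mesenchymal cells, was at 1.95 and 1.33 CPM in WT and at 166 and 118 CPM in KO (log2 FC 6.41, SE 0.27, edgeR adjusted p = 2.82e-05). ACVRL1 is a type I receptor gene of endothelial cells that works with endoglin. It rose from 0.380 and 0.102 CPM to 4.97 and 6.10 CPM (log2 FC 4.45, with 5.66 without S3 and 3.82 without S5). Its 2 counts in S5 are under the floor of 3 counts, so the value without S3 is not an exact fold. The type II receptor gene BMPR2 (log2 FC 1.45) and the co-receptor gene RGMB (1.39) rose, while the co-receptor gene RGMA (-2.56, with -3.15 without S3 and -1.56 without S5) and the type II receptor gene ACVR2B (-1.40) fell. BMPR1A, a type I receptor gene with the highest mean of the list per kb in WT NPCs, though below RGMB in S3, was at 67.4 and 107 CPM in WT and at 59.9 and 57.6 CPM in KO, and was not called.

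Among the genes of the signal transducers, SMAD1, SMAD4 and SMAD5 were not called, and SMAD9 was lower. SMAD5, the highest of its list per kb in WT NPCs, was at 104 CPM in both WT libraries and at 111 and 102 CPM in KO (log2 FC 0.02), and, named for their role with their values known, SMAD1 had a log2 FC of 0.14 and SMAD4 one of -0.18. SMAD9 fell by 2.11, whereas the inhibitor gene SMAD7 rose by 1.38 and SMURF2, which encodes a ubiquitin ligase for SMADs and receptors, by 2.25 (39.6 and 36.6 CPM in WT, 172 and 195 CPM in KO). In this list 2 of 8 tested rose and 1 fell.

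Of the other extracellular antagonists and modulators, 3 of 15 rose and 4 fell. FST, follistatin, which binds activins and some BMPs, went from 11.1 and 23.3 CPM in WT to 0.746 and 0.550 CPM in KO, 26.6-fold lower (log2 FC -4.74, with -5.18 without S3 and -4.11 without S5). The antagonist genes SOSTDC1 (log2 FC -2.43) and CHRDL1 (-2.00) fell with it. FSTL1, a secreted follistatin-like glycoprotein and the highest of this list per kb, rose from 710 and 411 CPM to 1519 and 1549 CPM, and FSTL3 rose by a log2 FC of 1.47.

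Of the other target genes, HEY1, a Notch and BMP target, fell by 2.23 on the log2 scale, and BAMBI, a pseudoreceptor gene and the highest of the list per kb in WT NPCs, fell by 2.17, from 2602 and 684 counts to 382 and 360 counts (log2 FC -0.998 without S3 and -2.82 without S5). In this list 1 of 7 tested rose, near the 8.45% of all genes, and 2 fell. It was MSX2, a homeobox target gene named here after its values were seen, at 15.5 and 3.64 CPM in WT and 53.6 and 36.2 CPM in KO (log2 FC 2.21, with 3.61 without S3 and 1.51 without S5). Of the 3 E protein genes, the partners of ID proteins, TCF3 fell by 1.03 (186 and 213 CPM in WT, 91.7 and 105 CPM in KO), and TCF4 and TCF12 were not called.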

How the data were processed

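RNA was made into stranded mRNA libraries. The authors aligned reads with HISAT2 to the hg19 genome, took those with a unique alignment to genes with featureCounts, versions not given in the sources used here, and deposited whole-number counts per gene for each cell type without normalization. The strand setting of the counting was not given, so reads of BMP4, GREM1 and ID2 cannot be told apart from those of annotated antisense genes that overlap their exons. Of 24050 Ensembl identifiers, 23273 were named through GENCODE lifted to hg19.

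Each cell type was tested by itself in R 4.3.3 with edgeR 4.0.16 (TMM, quasi-likelihood test, Benjamini-Hochberg adjustment) over genes whose total count was at least the number of libraries. The interaction and the WT comparison used all 10 libraries over the 19665 genes in both tables. Calls needed an FC over 2 at an adjusted p under 0.05. Standard errors and 95% intervals come from the same fits. Floors of 3 counts cover counting error only, since there are no molecular identifiers. Tests were tried on simulated data. The alternatives were DESeq2 1.42.0, voom (limma 3.58.1), DESeq2's size factors, library size alone, filterByExpr, no filter beyond 1 count, adjusted p alone, all 10 libraries in one fit, and leaving out each library.

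The 10 genes, the lists and the tests were chosen with earlier results of these data known. Named besides the 10 were ZNF274, the called pathway genes (the 20 with the smallest p where more were called), the highest gene per kb of each list in WT NPCs, and the most alike gene. Libraries of a group differed by more than sampling noise. Transposable elements and other assays were not analysed here, and the values of 1 marker gene are not reported here.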

Additional observations from a re-analysis of the deposited data

Results flagged for a closer look

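For 6 of the 10 genes, the KO effect differed between NPCs and HEK293T cells by the interaction over all 10 libraries (edgeR's quasi-likelihood test). Over all genes tested, 6.22% were called lower and 6.01% higher in it. The log2 difference was -2.42 for BMP2, -3.14 for BMP7, -3.71 for NOG, -2.98 for ID2 and -4.31 for ID4, and the fitted value for GREM1 was 6.85, which rests on HEK293T libraries at or under the floor. The 3 calls kept without KO NPC library S1 or S2 were those of BMP7, ID2 and ID4. Groups of 2 or 3 libraries are too small for a test of single libraries that stand apart.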

How the results depend on the processing

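All 7 calls in NPCs kept their direction and threshold under the 11 alternatives run for each. The count of genes called in the interaction was 6, and 3 to 7 with a library left out. The count of other pathway genes called in NPCs was 23, and 12 to 24 with a library left out; where this leaves 1 library in an arm, its spread is assumed to be that of the rest. Directions turned for values that the reported fit did not call. In HEK293T cells these were ID2 (0.016) and ID4 (0.037) with library size alone, BMP4 without S18 (-0.026, with 0.26 as the highest value over libraries left out) and ID4 without S20 (0.063, with -0.11 as the lowest). In NPCs BMP2 turned without S3 (0.0078, with -1.70 as the lowest), and between WT groups BMP4 turned without S5 (0.32, with -2.31 as the lowest). The cause was not tested. Library size alone moved the median log2 FC of all genes from -0.02 to -0.13 in NPCs and from -0.03 to -0.24 in the interaction. Depth limits BMP5 and GREM1 in HEK293T cells and NOG in KO NPCs. No paired analysis was possible because no labels pair WT with KO libraries.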
